A study of Danio rerio with 6 samples.

Results

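Glutathione is the tripeptide of glutamate, cysteine and glycine that buffers the redox state of cells. It is made in the cytosol by glutamate-cysteine ligase and glutathione synthetase, is oxidised by glutathione peroxidases as they reduce peroxides, and is regenerated by glutathione reductase. Outside the cell, gamma-glutamyltransferases take off the glutamate so that the parts can be taken up again. Photoreceptors have a high oxygen turnover and outer segment membranes rich in polyunsaturated lipids, and depend on these peroxidases.

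The expression of 10 genes of this pathway was examined in cells of the zebrafish (Danio rerio) eye: the gamma-glutamyltransferases ggt5a and ggt1a, the synthesis genes gclc, gclm and gss, the reductase gene gsr, and the peroxidase genes gpx1a, gpx1b, gpx4a and gpx4b. All 10 symbols were found among the 14781 genes of the deposited table, and 9 of them, all but ggt1a, passed the filter on low values (10 or more normalized counts in 3 or more of the 6 libraries). The transferase ggt5a was selected on its measured fall between the genotypes in these same libraries, so its values are given as a description with no test. The other 9 belong to the same pathway.

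The cells came from larvae at 5 days post-fertilization carrying thrb:tdTomato, a red fluorescent reporter driven by regulatory sequence of thrb, a thyroid hormone receptor gene that marks red cones, and red-fluorescent cells were sorted from pooled eyes. Of the 6 libraries, 3 are wild type (WT) and 3 carry the label samd7-/- and are called samd7-/- libraries after it, their larvae having 2 parents homozygous for the stl888 allele of samd7. Each library was a separate clutch of 20 to 25 larvae. The genotypes had different parents, and only a subset of each clutch was genotyped, so genotype and parental line cannot be told apart.

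Reads recovered from the table summed to between 13435570 and 20369266 per library. The samd7 transcript itself was at 8711, 7262 and 7075 normalized counts in WT libraries 1 to 3 and at 24544, 24733 and 23712 in samd7-/- libraries 1 to 3, where it was thus higher, and this level does not check the genotype. The cone genes opn1lw2, arr3a, gnat2, pde6c and pde6h were abundant in every WT library. Of 7 genes listed for red cones 5 fell and 1 rose in the samd7-/- libraries, but gnat2, pde6c and pde6h among them are not particular to red cones. The gene that rose was the red opsin gene opn1lw1 (log2 change 3.29, limma adjusted p = 0.0459). The reporter's own gene thrb was not called (log2 difference -0.40, limma adjusted p = 0.200). The summed level of the 7 went from 3356000 to 3542590 normalized counts in WT to 866209 to 1537140. Of 5 UV-cone markers 4 rose (arr3b, tbx2a, tbx2b and grk7b). The UV opsin gene opn1sw1 was not called (log2 difference 5.91, limma adjusted p = 0.0720). The 5 summed to 11698 to 56758 in WT and to 1408100 to 2163430 in the samd7-/- libraries. Of these 5 genes opn1sw1 had the highest mean in both genotypes and weighs most in the sums. Its weight differed between libraries. In WT library 1 it had 3982 normalized counts beside 3922 of arr3b, and in samd7-/- library 1 816560 beside 687340. Of all tested genes 1.26% were called higher and 3.90% lower. In bulk samples fewer cells of a type and less RNA per cell cannot be told apart. The part of these changes in cone genes in the differences below was not tested.

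The gene ggt5a encodes a membrane enzyme that, in mammals, cleaves glutathione and leukotriene C4 outside the cell. It was at 1028, 999.4 and 899 normalized counts in WT libraries 1 to 3 and at 21.5, 41.1 and 0 in samd7-/- libraries 1 to 3. The WT libraries lay close together, with a coefficient of variation of 6.99%, and the genotypes were far apart. These values rest on 855, 1025 and 675 recovered reads in WT against 26, 55 and 0. The samd7-/- libraries 1 and 2 thus held 2.201% and 4.21% of the WT mean, and the count of 0 in library 3 allows up to 2.62 normalized counts. The means were 975.4 ± 68.2 and 20.9 ± 20.6 (SD, n = 3, as for all means below), a 46.8-fold ratio, and the difference of mean log2(value + 1) was -6.63. Without samd7-/- library 3, the library at 0, that difference was -4.99. Of 9886 genes tested across the transcriptome, 5, ggt5a included, had a difference of -6.63 or lower (0.0506%). Because ggt5a was chosen for its fall, a low rank was set in advance and is no separate result. The rank was not redone without samd7-/- library 3.

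**Figure D1:**
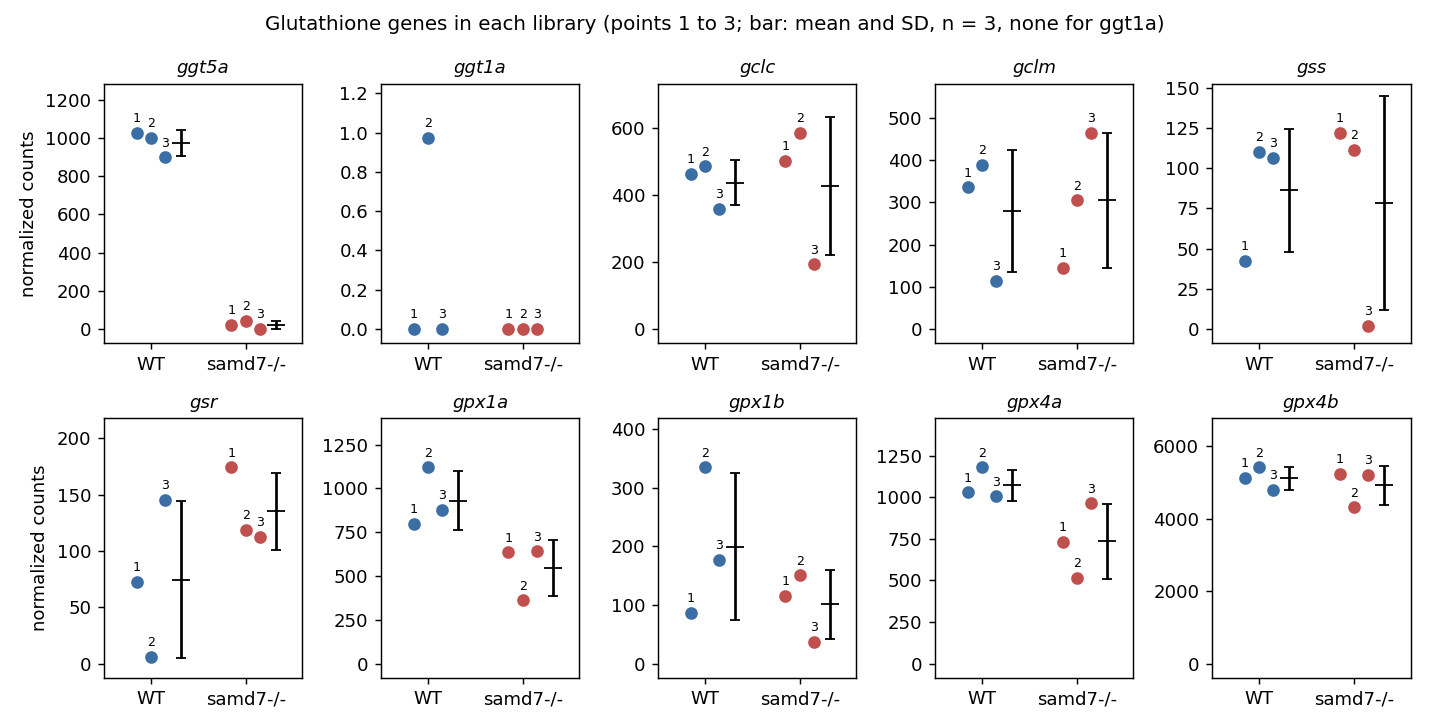
Normalized counts (y axis, linear, own scale per gene) of the 10 glutathione genes in WT (blue) and samd7-/- (red) libraries; numbered points are libraries, and bars show the mean and SD of 3 libraries (none for ggt1a, which is near 0). ggt5a lies between 899 and 1028 in WT and at 41.1 or less in the samd7-/- libraries, whereas the points of gclc, gclm, gss, gsr, gpx1b and gpx4b overlap between the genotypes.

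The other gamma-glutamyltransferase matched in the table, ggt1a, the zebrafish relative of the mammalian enzyme that breaks down extracellular glutathione in most tissues, was barely detected. A single read was recovered in WT library 2 (0.975 normalized counts) and none in the other 5 libraries, where a count of 0 allows between 2.24 and 3.99 normalized counts. No fold is given, since both genotypes were at or under that limit. The other 6 members of the family that were looked for (ggt1b, ggt1l2.1, ggt1l2.2, ggt5b, ggt6 and ggt7) were not matched by symbol and were not analysed here. Of the 2 gamma-glutamyltransferase genes matched, ggt5a alone was thus above that limit in WT cells.

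In the RefSeq annotation of assembly GRCz12tu, another build than the danRer10 of the submitters' processing notes, ggt5a and ggt1a are next to each other. The genes around them are described here for the 6 libraries and were chosen after ggt5a's values were seen. On the far side of ggt5a lies asphd2, with 77.0, 340.3 and 83.9 normalized counts in WT and 0, 217 and 4.36 in the samd7-/- libraries. Its groups overlapped, and its difference did not pass the test (log2 difference -3.64, limma adjusted p = 0.270). The next gene on that side, cabp1a, was at 0 in all 6 libraries, and the peroxidase gene gpx8, which lies beyond ggt1a, did not exceed 25.3 normalized counts in any. Among the neighbours measured, none had the even WT level of ggt5a.

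By likeness of pattern, the distance between mean-centred log2(value + 1) profiles over the 6 libraries, the nearest of 9877 genes to ggt5a was zgc:66433 (distance 0.75), with 1549, 971 and 915 normalized counts in WT and 26.4, 30.6 and 0 in the samd7-/- libraries. Next came si:ch73-281f12.4 (distance 2.23), the sphingolipid synthesis regulator ormdl3 (2.97), the homeobox gene nkx2.2a (3.01) and lurap1 (3.20). All 5 were high in every WT library relative to their samd7-/- libraries and, like ggt5a, had a count of 0 in samd7-/- library 3. That library held 0 for 56 of the 7069 tested genes that had at least 50 normalized counts in every WT library. The libraries are the 6 points of each profile, so the likeness rests on the same genotype contrast that chose ggt5a. Nearness to ggt5a also favours genes at 0 in samd7-/- library 3, so the shared 0 is no separate result.

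None of the other 8 members that passed the filter on low values was called between the genotypes. With limma, an empirical Bayes linear model fitted to all 9886 genes, 0 of 8 passed at an adjusted p under 0.05, where 5.17% of all tested genes did. At an unadjusted p under 0.05 there was 1 of 8 (gpx1a), where 19.1% of all tested genes passed. On the recovered reads edgeR and DESeq2 also called 0, where they called 4.36% and 15.6% of the genes to which they gave an adjusted p. For gpx1b, gsr and gss DESeq2 gave no adjusted p, so its 0 does not cover them. The log2 differences of the 8 ran from -1.25 to 1.67 with a median of -0.38, against 0.05 for all tested genes, and adjusted p from 0.171 to 0.923. The difference was negative for 6 of 8, beside 47.6% of all tested genes. Scaling by library totals moves the median of all tested genes up by 0.23. Under that scaling 4 of 8 were negative, with a median of -0.15, so these values do not compare with the 47.6% and 0.05. Every WT library lay above every samd7-/- library for 2 of 8, gpx1a and gpx4a, beside 12.4% of all tested genes (24.5% with no overlap in either direction).

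Synthesis starts with glutamate-cysteine ligase, whose catalytic subunit is encoded by gclc. Its level was 464, 486 and 359 normalized counts in WT and 502, 586 and 193 in the samd7-/- libraries, with samd7-/- library 3 the lowest of the 6 and library 2 the highest. The means were 436 ± 67.5 and 427 ± 207 (log2 difference -0.17, 95% interval -1.10 to 0.76, limma adjusted p = 0.879). The modifier subunit gene gclm, whose product raises the activity of the ligase, was at 336, 389 and 114 in WT and at 144, 305 and 466 in the samd7-/- libraries. Both groups spread over a similar range, and the log2 difference was 0.15 (interval -1.06 to 1.36, limma adjusted p = 0.923). Its sign turned without WT library 3 (-0.40) and without samd7-/- library 3 (-0.23).

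The share of gclm in the sum of both subunit genes, which does not depend on library scaling, stood at 42.0%, 44.5% and 24.2% in WT and at 22.3%, 34.2% and 70.7% in the samd7-/- libraries. It was thus lowest and highest within the samd7-/- group, and the means of 36.9% ± 11.1 and 42.4% ± 25.2 differed by less than the spread (two-sided exact permutation p = 0.9, with 0.1 the smallest that 3 against 3 allow). The samd7-/- library 3 had both the lowest gclc and the highest gclm value of the 6.

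The next step, glutathione synthetase, is encoded by gss, a gene of low level in these cells, with 42.1, 110.2 and 106 normalized counts in WT and 122, 111 and 1.74 in the samd7-/- libraries. The last value is 2 reads of the deepest library, and without it the log2 difference went from -1.25 (interval -4.23 to 1.72, limma adjusted p = 0.687) to 0.55. A wide range of differences is thus allowed by these data for gss. The sum of gclc, gclm and gss was 802 ± 205 in WT and 810 ± 175 in the samd7-/- libraries.

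Glutathione reductase, which uses NADPH to restore oxidised glutathione, is encoded by gsr. It had 72.2, 5.85 and 145 normalized counts in WT and 174, 119 and 112 in the samd7-/- libraries. The samd7-/- values were the more even, WT library 2 held only 6 reads, and the groups overlapped. The log2 difference of 1.67 (interval -0.61 to 3.96, limma adjusted p = 0.437) fell to 0.37 without WT library 2, and edgeR gave 0.87 (adjusted p = 0.775).

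**Figure D2:**
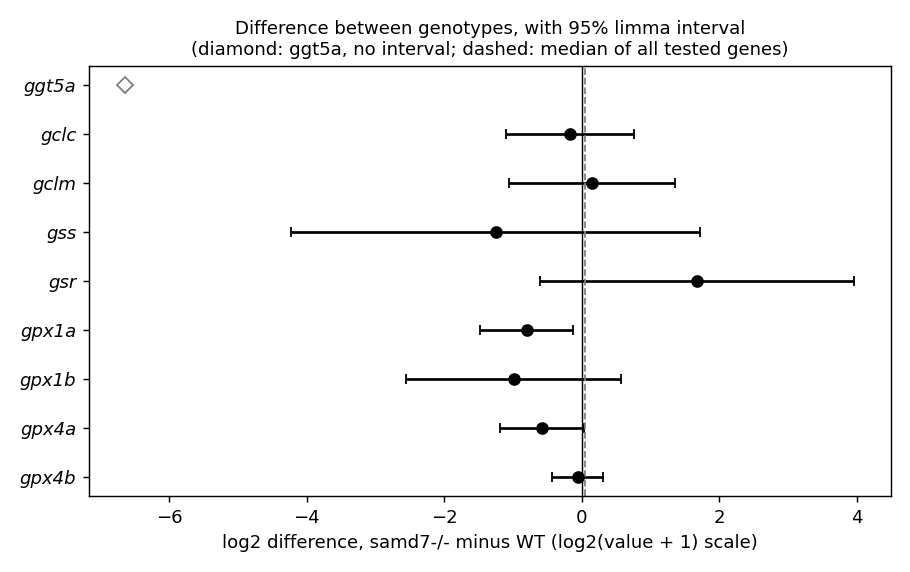
Difference of mean log2(value + 1), samd7-/- minus WT, for the 9 glutathione genes that passed the filter; points with bars are limma estimates with 95% intervals, the open diamond is ggt5a, shown without an interval, and the dashed line is the median of all tested genes (0.05). ggt5a lies at -6.63, the other genes between -1.25 and 1.67, and the intervals are narrowest for gpx4b and widest for gss.

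The peroxidases are selenoproteins, with selenocysteine in the active site. The gpx4 products reduce lipid hydroperoxides within membranes, and gpx4b had the highest values of all 10 genes, though gene lengths were not used and levels of different genes are not ranked here. It was at 5129.65, 5412 and 4791 normalized counts in WT and at 5237, 4306 and 5213 in the samd7-/- libraries. The genotypes overlapped, and the means of 5111 ± 311 and 4919 ± 531 gave a log2 difference of -0.06 with the narrowest interval of the tested members, -0.43 to 0.31 (limma adjusted p = 0.897). Scaling by library totals gave 0.17.

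Its paralog gpx4a was at 1029.5, 1179.8 and 1005 normalized counts in WT and at 733, 513 and 963 in the samd7-/- libraries. All samd7-/- values lay under all WT values, with library 3 close to them, but the difference was not called (1071 ± 94.6 and 737 ± 225, log2 difference -0.58, interval -1.19 to 0.03, limma adjusted p = 0.285). The share of gpx4a in the gpx4a and gpx4b sum stood at 16.7%, 17.9% and 17.3% in WT and at 12.3%, 10.6% and 15.6% in the samd7-/- libraries. These shares did not overlap and were very even in WT (17.3% ± 0.592 against 12.8% ± 2.52), with a two-sided exact permutation p of 0.1, the lowest that can be reached (adjusted 0.3 over the 3 gene pairs compared). The sources used here do not give the treatment of reads common to both paralogs, so the split between them is uncertain.

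The gpx1 products reduce hydrogen peroxide in the cytosol. Counts of gpx1a were 797, 1119 and 875 in WT and 634, 360.1 and 639.97 in the samd7-/- libraries, again without overlap. The means were 930.5 ± 168 and 545 ± 159.9, and the log2 difference of -0.80 (interval -1.48 to -0.13) had a limma p of 0.0226 before and 0.171 after adjustment over all genes. Without samd7-/- library 2 the difference was -0.53, and edgeR and DESeq2 gave adjusted p of 0.212 and 0.126. The second gene, gpx1b, was lower and more variable, with 86.6, 334 and 177 normalized counts in WT and 116, 150.2 and 36.6 in the samd7-/- libraries (log2 difference -0.99, interval -2.56 to 0.57, limma adjusted p = 0.517). The difference was -0.52 without WT library 2, its highest library, and -0.39 without samd7-/- library 3, its lowest.

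The share of gpx1a in the gpx1 pair was 83.5% ± 6.61 in WT and 83.2% ± 12.1 in the samd7-/- libraries (two-sided exact permutation p = 1). Summed over all 4 peroxidase genes, WT libraries 1 to 3 held 7043, 8045 and 6847 normalized counts, and the samd7-/- libraries 6720.1, 5329 and 6853. These sums overlapped, with means of 7312 ± 643 and 6301 ± 844.

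**Figure D3:**
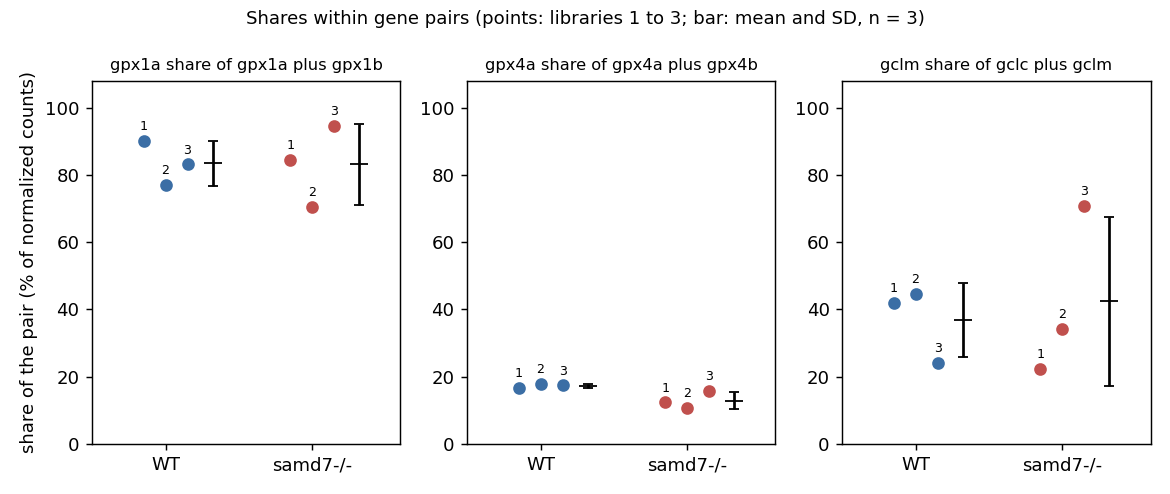
Share (percent of normalized counts, y axis from 0) of gpx1a in the gpx1 pair, gpx4a in the gpx4 pair and gclm in the ligase subunit pair; numbered points are libraries and bars show the mean and SD of 3 libraries. The gpx4a share lies at 16.7% to 17.9% in WT and 10.6% to 15.6% in the samd7-/- libraries, whereas the points of the other 2 pairs overlap.

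Around these members, 13 lists of glutathione and wider redox genes, written with earlier results of these data known, were read from the same fit. The lists also cover other selenoproteins, superoxide dismutases, NADPH supply and iron handling, so many of their genes do not act on glutathione itself. Outside the 10 members the lists held 168 symbols, of which 131 were matched and 102 tested, and 1 rose and 8 fell. These 9 are 8.82% of those tested, beside 5.17% of all genes (1.26% higher and 3.90% lower). The median log2 difference was -0.19, against 0.05 for all tested genes. Under library totals, which move the median of all genes up by 0.23, 3 of the 102 rose and 3 fell. Of all 9886 tested genes, 415 rose and 252 fell under that scaling.

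In the gamma-glutamyl cycle itself, the gene that fell was oplah, which encodes the 5-oxoprolinase that turns cyclised glutamate back into glutamate. It was at 748, 892 and 896 normalized counts in WT and at 107, 251 and 84.6 in the samd7-/- libraries, so that the highest samd7-/- library lay far under the lowest WT one. The log2 change was -2.67 (845 ± 84.3 to 148 ± 90.2, SE 0.44, limma adjusted p = 0.00274), and with 1 library left out it ran from -3.13 to -2.35 with an adjusted p up to 0.0203. It was called under all 15 alternatives tried, the only one of the 9 genes of which this is so. The other 5 tested genes of glutathione breakdown did not pass. Among them the gamma-glutamylcyclotransferase chac1, which degrades glutathione inside the cell, had 4417 ± 874 and 2915 ± 243 (log2 difference -0.58, limma adjusted p = 0.121).

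Of 18 other selenoprotein genes tested 3 fell and 0 rose, beside 3.90% lower and 1.26% higher among all tested genes. Differences were negative for 12 of 18, beside 47.6% of all tested genes, with a median of -0.16 against 0.05 for all tested genes. Under library totals, which move the median of all genes up by 0.23, 8 of 18 were negative and the list median was 0.07. The methionine sulfoxide reductase gene msrb1a was at 570.1, 1256 and 455 normalized counts in WT and at 147, 109 and 126 in the samd7-/- libraries, which were low and even (log2 change -2.44, limma adjusted p = 0.00611). WT library 2 was high, and without it the adjusted p was 0.0592. The endoplasmic reticulum gene vimp, now selenos, fell by 1.22 on the log2 scale (limma adjusted p = 0.0179), and fam213aa, the older symbol of selenou1a, by 0.81 (limma adjusted p = 0.0281). The selenoprotein gene with the highest values, selt1a, had 4793 ± 782 and 5346 ± 1097 (log2 difference 0.15, limma adjusted p = 0.746). Of 4 tested genes that make or insert selenocysteine none passed, and the one with the highest values, sps2, had 948 ± 175 and 1500 ± 312 (log2 difference 0.66, limma adjusted p = 0.159).

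For cysteine supply, 8 genes were tested and slc3a2b fell, a gene for the heavy chain shared by several amino acid exchangers (11211 ± 2065 to 6334 ± 1215, log2 change -0.83, limma adjusted p = 0.0253). Its paralog slc3a2a, of lower values, had a positive difference and was not called (667 ± 322 and 1057 ± 266, log2 difference 0.75, limma adjusted p = 0.279). Of 10 genes that supply NADPH, the pentose phosphate gene pgd (log2 change -0.89, limma adjusted p = 0.0466) and the mitochondrial malic enzyme gene me3 (-1.04, limma adjusted p = 0.0465) fell, and idh2, with the highest values of the list, had 22449 ± 2910 and 17911 ± 6885 (log2 difference -0.38, limma adjusted p = 0.394). Among 9 genes of iron handling and lipid peroxidation acsl4a rose, which puts polyunsaturated fatty acids into phospholipids. It was at 742, 1054 and 1032 normalized counts in WT and at 1922, 1747 and 3853 in the samd7-/- libraries, without overlap (log2 change 1.33, limma adjusted p = 0.0174). The ferritin gene fth1a, with the highest values of that list, had 7256 ± 518 and 6120.1 ± 1336 (log2 difference -0.26, limma adjusted p = 0.497).

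Nrf2, encoded by nfe2l2a in zebrafish, is the transcription factor known for driving gclc, gclm and other antioxidant genes, and pairs with small Maf proteins. Of the 7 tested genes of its list 1 passed, the small Maf gene maff (1928 ± 346 to 882 ± 134, log2 change -1.12, limma adjusted p = 0.0145), and nfe2l2a had 1627 ± 443 and 897 ± 103 (log2 difference -0.83, limma adjusted p = 0.0889). The differences of all 7 were negative, as were those of 47.6% of all tested genes, and all 7 were also negative under library totals. The 7 mix Nrf2 and its partners with genes of factors that oppose it, keap1b (-0.63) and bach1a (-0.75). Their shared sign thus gives no direction for Nrf2 activity. The paralog of nfe2l2a, nfe2l2b, did not pass the filter (4.23 ± 0.50 in WT and 20.5 ± 21.8 in the samd7-/- libraries, which overlapped). The median of the 7 tested genes was -0.83, against 0.05 for all tested genes.

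In the remaining lists no gene passed. These were 15 glutathione transferases (highest gstp1, log2 difference 0.14), 16 thioredoxin, glutaredoxin and peroxiredoxin genes (prdx2, 0.19), 6 genes of catalase, superoxide dismutases and heme oxygenases (sod2, -0.37) and 3 leukotriene genes (lta4h, -0.63). The peroxidase genes gpx3, gpx7 and gpx8 did not pass the filter.

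**Figure D4:**
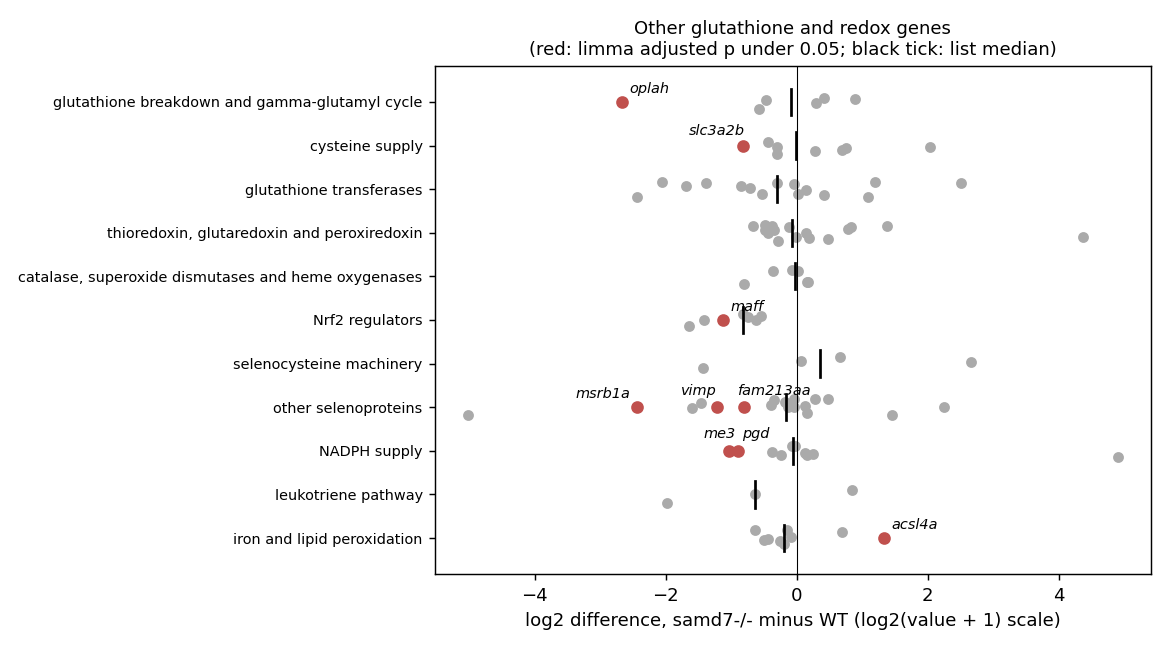
Difference of mean log2(value + 1), samd7-/- minus WT, for the tested genes of each list (one point per gene, spread vertically for legibility); red points passed at a limma adjusted p under 0.05 and are named, and black ticks are list medians. oplah at -2.67 and msrb1a at -2.44 are the lowest of the genes that passed, and acsl4a at 1.33 is the highest.

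Of these 9 genes, 8 lost their call when 1 library was left out. The adjusted p then rose to 0.0812 for acsl4a and 0.169 for pgd (without WT library 1), to 0.0842 for maff (without WT library 2), to 0.188 for me3 (without WT library 3), to 0.121 for fam213aa (without WT library 1), and to 0.137 for slc3a2b and 0.0799 for vimp (without samd7-/- library 1). Calls held without every single library only for oplah, in 5 of 6 such fits for msrb1a and acsl4a, in 3 of 6 for maff, slc3a2b and vimp, and in 1 of 6 for pgd, me3 and fam213aa. Under library totals the calls of slc3a2b (adjusted p = 0.0804), vimp (0.0686), fam213aa (0.127), pgd (0.0745) and me3 (0.130) were lost, and edgeR did not call pgd (0.0916) or me3 (0.0517).

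Markers of other cell types were read beside these genes. Of all tested genes, 1.26% were called higher and 47.6% had a negative difference. Of 7 tested Müller glia markers 1 rose, glula, and the list summed to between 29642 and 37025 normalized counts in WT and to between 46090 and 73304 in the samd7-/- libraries. In the same list differences were positive for 6 of 7. Those of rlbp1a, slc1a2b and cahz were among the positive ones and were not called. The genes apoeb (log2 difference 0.04) and gfap (-0.59) were not called either. Of 7 markers of dividing cells 2 rose, mki67 and top2a, all 7 differences were positive, and the sums were 8246 to 10905 in WT and 15626 to 15766 in the samd7-/- libraries. Of 6 horizontal-cell markers 2 rose, onecut1 and rem1, with sums of 4914 to 7022 and 9071 to 11489. Differences of this list were positive for 5 of 6. Of 7 amacrine-cell markers 2 rose, tfap2b and pax6a, with sums of 13754 to 19335 and 17623 to 21016 that overlapped. Their differences were positive for 5 of 7. The amacrine marker with the highest values, gad1b, was not called (log2 difference 0.28). The differences of slc32a1 (-0.46) and slc6a9 (-2.88) were negative and not called. No marker of bipolar, ganglion, rod, pigment, blood or lens cells was called. Among these, differences were positive for 6 of 6 tested bipolar, 5 of 6 ganglion and 3 of 4 pigment markers. They were positive for 1 of 6 rod, 2 of 6 blood and 1 of 5 lens markers. Of 5 vessel markers tested 0 changed, sums of 360 to 1354 and 446 to 1398 overlapped, and sox17 was at 0 in all libraries. Markers of surface and corneal epithelium summed to between 1402 and 16952 in WT and to between 2624 and 5695 in the samd7-/- libraries, and none was called. Among them tp63 had 222 ± 188 and 33.5 ± 19.4 (log2 difference -2.60, limma adjusted p = 0.134). The part of other cell types in the differences of the glutathione genes was not tested.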

How the data were processed

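The deposited table gives, for 14781 genes, a signal per library that the authors made by dividing gene counts by a size factor (normalized counts), the genotype means, a log2 fold change and a p-value adjusted by the authors. The authors' deposited log2 fold changes and p-values are not quoted here. The submitters' processing notes name STAR 2.7.2b, Trim Galore 0.6.1, R 4.1.3, DESeq2 1.34.0 and HTSeq 0.9.1 and the build danRer10. Annotation and strand setting were not stated there. Libraries used 300 pg of RNA and 14 plus 15 cycles of amplification, per the labels, with no molecular identifiers described, so that limits from counts cover counting error only.

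Whole reads were recovered, since 100% of nonzero values in each library fell within 0.01 read of a multiple of 1 step. Values were analysed as log2(value + 1) with limma 3.58.1 in R 4.3.3 (trend and robust options, genotype as the only term), for genes with 10 or more normalized counts in 3 or more libraries. Calls were made at a Benjamini-Hochberg adjusted p under 0.05 over 9886 genes. The added 1 shrinks the differences of low genes. A difference of mean logs can still exceed the change in the means where 1 library is near 0. It was -6.63 for ggt5a and -1.25 for gss, where edgeR gave -5.52 and -0.13. Shares within gene pairs were compared by exact permutation. edgeR 4.0.16 and DESeq2 1.42.0 were run on recovered reads, as alternatives along with other pseudocounts (0.5 and 5), filters, scalings and left-out libraries. The limma and edgeR scripts were tested on simulated data. Deviations of same-numbered libraries from their group means correlated at 0.05, -0.03 and 0.01, so the numbers were not taken as pairs.

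Members and lists were chosen with earlier results of these data known. The text names all 10 members, every other gamma-glutamyltransferase matched in the table, the called genes (at most 4) and the most abundant gene of each list, and the 5 genes nearest to ggt5a in pattern. Symbols were matched as deposited or through older symbols.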

Additional observations from a re-analysis of the deposited data

How the results depend on the processing

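The count of 0 called among the members beside ggt5a was the same under all 15 alternatives, including each left-out library (0 to 0) and the replicate block, and the log2 difference of ggt5a lay between -7.68 and -4.99. Signs turned for gclc (0.061 under library totals, and from -0.47 to 0.33 with 1 library left out), gpx4b (0.17 under library totals, and from -0.11 to 0.034), gclm (-0.40 to 0.61) and gss (-2.19 to 0.55), none of which was called. DESeq2 gave no adjusted p for gpx1b, gsr and gss. Over all genes 511 were called, 125 higher and 386 lower, against 415 higher and 252 lower under library totals, 883 in all with DESeq2, and between 225 (without WT library 2) and 573 (without samd7-/- library 3) with 1 library left out. It was 311 without WT library 1 and 279 without samd7-/- library 1. Of the wider lists 9 were called, and between 3 (without WT library 2) and 10 (without samd7-/- library 3) with 1 library left out. There were 4 without WT library 1, WT library 3 or samd7-/- library 1, and 5 without samd7-/- library 2. The replicate block gave 431 over all genes and 7 in the wider lists, where slc3a2b (adjusted p = 0.0582) and me3 (0.0670) lost their calls. The numbers did not pair the libraries, so no paired test of the shares was run. The difference in share, samd7-/- less WT, ran with 1 library left out from -5.88 to 6.13 points for gpx1a, from -5.85 to -3.38 for gpx4a and from -8.59 to 15.6 for gclm. Low counts limit gss, gsr and gpx1b, whose intervals are wide.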

Other observations

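Among the 102 tested genes of the wider lists, the genotypes did not overlap for 29, of which 20 were not called. Of these 20, 3 are described here and were chosen after their values were seen. The deiodinase gene dio3b, a selenoprotein that inactivates thyroid hormone, was at 97.4, 119 and 205 normalized counts in WT and at 0, 3.74 and 14.0 in the samd7-/- libraries (log2 difference -5.02, limma adjusted p = 0.0722). The cytosolic malic enzyme gene me1 was at 0 in all 3 WT libraries and at 49.5, 29.1 and 16.6 in the samd7-/- libraries. No minimum fold is given for me1, since its WT level was under the limit set by 3 counts per library. Its log2 difference was 4.90 (interval 0.30 to 9.51, limma adjusted p = 0.230). A gene at 0 in all 3 WT libraries passed the filter only with 10 or more normalized counts in all 3 samd7-/- libraries. The lack of overlap and the direction for me1 were thus set by the filter, and no conclusion is drawn from them. Its mitochondrial relative me3 fell. The selenocysteine synthase gene sepsecs was at 49.3, 4.88 and 114 in WT and at 155, 155 and 350 in the samd7-/- libraries (log2 difference 2.65, limma adjusted p = 0.170). Genotypes did not overlap for 24.5% of all tested genes.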
